A study of Homo sapiens with 4 samples.

Results

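The genes described are 8 genes of RIG-I-like RNA sensing, a fixed list of RIGI (also written DDX58), IFIH1, DHX58, MAVS, DDX3X, TRAF6, TANK and RNF135, out of 20037 protein-coding genes of the RefSeq table of GRCh38.p14. The IRF3 peaks assigned to them are those whose summit lay within the gene span plus 10 kb on each side, which were 20 of 41880 in the list of replicate 1 and 22 of 41666 in that of replicate 2. The series profiled IRF3 binding in MM1.S, an established human multiple myeloma line, and it held 2 IRF3 ChIP libraries and 2 input libraries. The sample titles name no treatment. The comparison is of ChIP over input within each replicate, and there is no second condition, stimulus, genotype or cell line. Peak lists hold no expression values, so neither the plasma cell identity of the line nor the activity of these genes was measured.

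RIG-I-like receptors are cytosolic helicases that recognise viral or misplaced double-stranded RNA. RIG-I and MDA5 then assemble the mitochondrial adaptor MAVS into filaments, and these recruit TRAF ligases and the kinases that phosphorylate IRF3. Phosphorylated IRF3 enters the nucleus and activates type I interferon and antiviral genes, and the sensor genes themselves are known interferon-stimulated genes. IRF factors bind DNA that carries repeats of GAAA, as in the interferon-stimulated response element (ISRE).

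Both IRF3 lists had a peak at the same place near each of the 8 genes. A shared region is a stretch where peaks of the replicates overlap by at least 1 bp, and the 8 windows held 17 of them, along with 3 peaks of replicate 1 alone and 5 of replicate 2 alone. All 8 genes had at least 1 shared region in the window, against a background of 69.3% of protein-coding genes. Windows scale with gene length, and the gene spans ranged from 11.3 kb for DHX58 to 99.3 kb for TANK. The number per gene was 1 to 3 with a median of 2, against a median of 1 over all genes. DHX58 and TANK had 3 shared regions, where 19.95% of all genes had 3 or more. The summits of the replicates lay 4 to 91 bp apart in the 17 shared regions, with a median of 19 bp. Fold enrichment, the authors' ratio of ChIP over local input background at a summit, reached at most 3.29 where replicate 1 alone had a peak and at most 3.78 where replicate 2 alone had one. In the shared regions its median was 4.84 in replicate 1 and 5.16 in replicate 2. The lowest shared values, 3.14 in replicate 1 and 2.89 in replicate 2, were below those maxima, so the ranges overlapped.

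**Figure D1:**
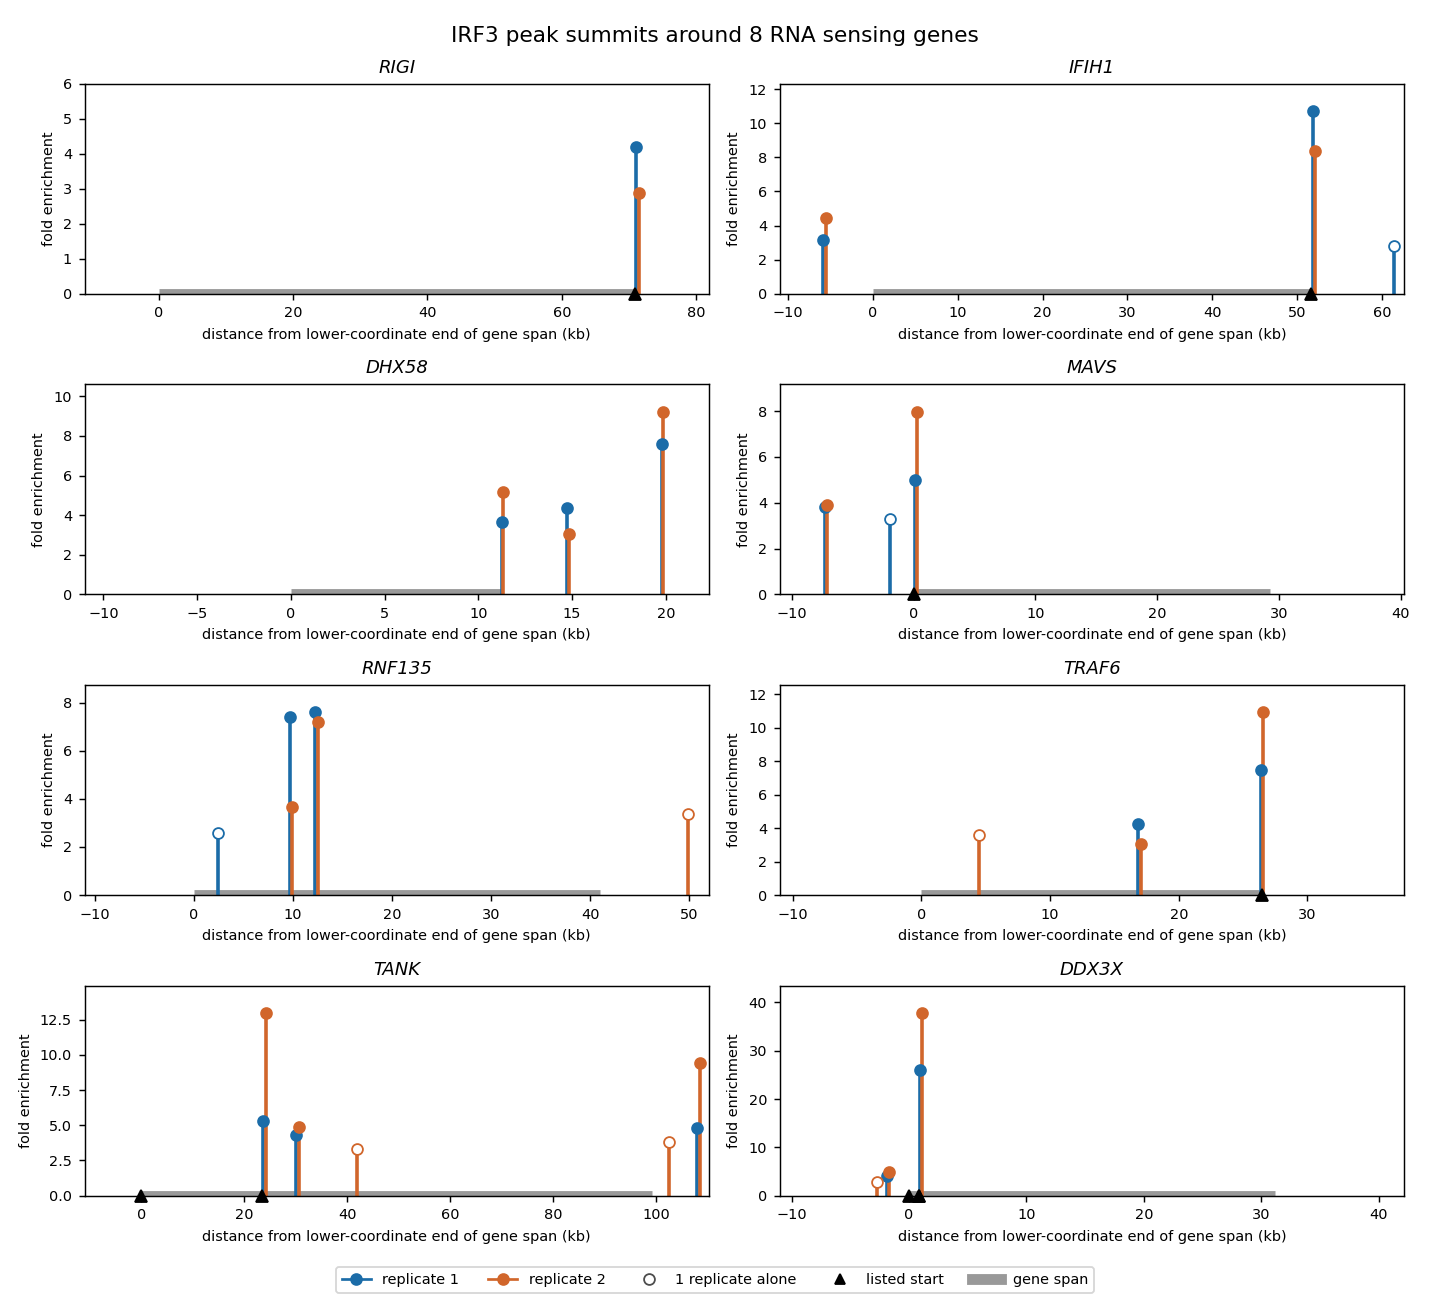
Each panel shows 1 gene, with the distance of each peak summit from the lower-coordinate end of the gene span in kb on the x axis and the fold enrichment of the peak on the y axis. Blue is replicate 1, orange is replicate 2 (drawn slightly to the right so that both show), open circles are peaks of 1 replicate alone, grey bars are gene spans and triangles are start sites listed by RefSeq. In RIGI, IFIH1, MAVS, TRAF6, TANK and DDX3X the tallest shared pair stands at a triangle, and in TANK it stands at the second of the listed starts.

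Each gene with a start site in the set of RefSeq starts used here had a shared region there. This set covered only part of all genes and listed a start for 6 of the 8. All 6 had a shared region with its summit within 1 kb of a listed start. The background was 54.4% of the 15843 genes with one. DHX58 and RNF135 were not in the set and were placed by the ends of their spans alone. Counted by either end of the gene span, 6 of 8 genes had a shared region within 1 kb, against a background of 50.03%, and TANK and RNF135 were the exceptions. The counts rest on 8 genes and no test was made of them.

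RIGI, which encodes the sensor of short double-stranded RNA with a terminal phosphate, had a single region that was weak by fold enrichment. It lay on chromosome 9 (32526113 to 32526648) at the 5′ end of the gene, which is on the minus strand. The fold enrichment was 4.20 in replicate 1 and 2.89 in replicate 2, from pileups of 59 and 53 stacked fragments. The fold enrichments were at the 56.8 percentile of the list of replicate 1 and the 14.7 percentile of that of replicate 2. A percentile is the share of a list's own peaks at or below the value. By the worse of the within-list percentiles RIGI had the lowest place of the 8 genes, while in replicate 1 alone DHX58 was lower. Among the 8624 genes with a region at a listed start, its region was at the 5.23 percentile when ranked by the worse of the within-list places. By pileup the RIGI region was nearer the middle of the lists, at the 48.9 percentile in replicate 1 and the 59.6 in replicate 2. No end of another protein-coding gene was nearer than the 14.2 kb to TOPORS.

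The summits at RIGI lay upstream of the start, by 188 bp in replicate 1 and by 234 bp in replicate 2. The 250 bases before the start (GRCh38.p14, chr9:32526197-32526446, minus strand, from RefSeq) are shown because both summits fall inside them. Capitals mark matches to the searched motifs.
RIGI promoter: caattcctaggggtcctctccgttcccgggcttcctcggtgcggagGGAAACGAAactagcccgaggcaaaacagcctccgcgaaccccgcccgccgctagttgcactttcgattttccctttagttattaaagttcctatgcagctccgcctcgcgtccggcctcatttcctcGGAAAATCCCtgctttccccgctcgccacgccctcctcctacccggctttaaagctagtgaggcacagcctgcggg

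A match to the ETS-IRF composite motif GGAANNGAA, a form at which an IRF factor is known to bind beside an ETS factor, lay at 204 to 196 bases before the RIGI start. This is the first capital run. Its midpoint was 12 bp from the summit of replicate 1 and 34 bp from that of replicate 2. The second run, at 76 to 67 bases before the start, matches the NF-kB consensus. No match to the ISRE core letters GAAANNGAA was found in this window.

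IFIH1, which encodes MDA5, the sensor of long double-stranded RNA, had a stronger region (chromosome 2, 162317754 to 162319360). Fold enrichment was 10.7 in replicate 1 and 8.34 in replicate 2, with pileups of 202 and 123. These values were at the 97.3 and 84.2 percentiles of the replicates' lists. The summits were 212 and 228 bp upstream of the IFIH1 start. GCA, a calcium-binding protein gene on the opposite strand, begins 79 bp from the 5′ end of IFIH1. The same summits were 86 and 70 bp upstream of 1 of the 4 listed starts of GCA. Both also lay inside the GCA span, that of replicate 1 at 133 bp from its nearer end. The region therefore cannot be assigned to 1 gene of this pair.

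The IFIH1 promoter held the densest ISRE letters of the 6 genes. Of its 4 matches to GAAANNGAA, 3 overlapped in a single run read on the reverse strand, and the other lay close to the start. Both sites are shown as 30-base stretches on the strand of IFIH1 (GRCh38.p14, from RefSeq), with the matches in capitals.
IFIH1 distal site, chr2:162318824-162318853: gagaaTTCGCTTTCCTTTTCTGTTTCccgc
IFIH1 proximal site, chr2:162318687-162318716: agaagagaatcGAAACAGAAaccaaagtca

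The distal run covered 164 to 144 bases before the IFIH1 start, and the midpoints of its matches were 52 to 64 bp from the summit of replicate 1 and 68 to 80 bp from that of replicate 2. The proximal match, at 21 to 13 bases before the start, was 195 and 211 bp from the summits. An NF-kB match of IFIH1 lay at 76 to 67 bases before its start, the same positions as in RIGI, and 11.3% of promoters held such a match. RIGI and IFIH1 each had 7 copies of the tetramer GAAA on both strands together, a count that 3.84% of promoters reached. The median promoter had 2, and the other listed starts of the 8 genes had 1 to 3. The tetramer count was added after the sequences were seen.

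DHX58 encodes LGP2, the RIG-I-like receptor without a signalling domain, which modulates the other sensors. Its region on chromosome 17 (42112339 to 42113088) had its summit 73 bp inside 1 end of the span. Fold enrichment there was 3.63 in replicate 1 and 5.16 in replicate 2, at the 43.1 and 62.4 percentiles of the lists. It stood at the 20.1 percentile of genes with a region at an end. The next gene, KAT2A, a histone acetyltransferase gene, has its nearer end 397 bp away. The other shared regions in the DHX58 window lay inside the span of KAT2A. Of these, the region at 42121007 to 42121443 had fold enrichments of 7.62 and 9.23 with its summit 145 bp from the listed start of KAT2A, and the region at 42115796 to 42116364 had 4.37 and 3.06. The tallest peaks within 10 kb of DHX58 were those at the start of KAT2A.

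MAVS, the adaptor that links the sensors to IRF3 activation, had a region across its start on chromosome 20 (3846383 to 3847451). Fold enrichment was 4.97 in replicate 1 and 7.98 in replicate 2, at the 70.04 and 82.8 percentiles. The summits were 143 and 129 bp downstream of the start. A second shared region 7.31 kb upstream (3839290 to 3839850) had 3.82 and 3.91. Replicate 1 alone had a further peak 1.94 kb upstream with a fold enrichment of 3.29. The only searched motif in the MAVS promoter was a CCAAT box at 29 to 25 bases before the start, a motif present in 32.7% of promoters.

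RNF135 encodes Riplet, the ubiquitin ligase that activates RIG-I. Both of its shared regions lay inside the gene span on chromosome 17 and none at an end. The region at 30970442 to 30971510 had a fold enrichment of 7.61 in replicate 1 and 7.20 in replicate 2, and its summit lay 12.2 kb from the lower-coordinate end. The region at 30968276 to 30968986, 9.73 kb from that end, had 7.42 and 3.66. The first region stood at the 90.8 percentile in replicate 1 and the 78.9 percentile in replicate 2, and the second at the 89.9 and 36.9 percentiles, so the replicates differed more about the second. Both summits were slightly nearer to an end of ADAP2, which overlaps the lower-coordinate end of RNF135, than to an end of RNF135 itself.

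TRAF6, a ubiquitin ligase that acts downstream of MAVS and of Toll-like receptors, had the second-best placed region of the 8 genes by the worse percentile. It lay on chromosome 11 (36509955 to 36510569), and its fold enrichment was 7.49 in replicate 1 and 10.9 in replicate 2. Those were at the 90.3 and 91.3 percentiles, the second closest agreement in place between the lists among these genes, after DDX3X. The summits were 95 and 114 bp downstream of the TRAF6 start. The region also covered the listed start of RAG1 (36510353), which is read in the other direction and begins 81 bp from the 5′ end of TRAF6. As at IFIH1, the region cannot be assigned to 1 gene of this pair. RAG1 encodes a subunit of the V(D)J recombinase. A weaker region 9.66 kb inside TRAF6 (36500462 to 36500872) had 4.26 and 3.03. None of the searched motifs matched in the 250 bases before the TRAF6 start.

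TANK, a scaffold that binds TRAF proteins and the kinase TBK1, had its region at the downstream one of its 2 listed starts. The region on chromosome 2 (161159867 to 161161168) showed an enrichment of 5.33-fold in replicate 1 and 13.0-fold in replicate 2, at the 74.3 and 94.5 percentiles. Its summits were 100 and 107 bp downstream of the start at 161160428. The nearest listed start of another gene, TANK-AS1, was 245 bp from the stronger summit. No peak of either replicate lay within 10 kb of the start at 161136963. Such a pattern, a region at the downstream start alone, was found in 11.2% of 1378 genes whose outermost listed starts are over 10 kb apart. The upstream start alone had a region in 31.5% of those genes, both in 12.2% and neither in 45.1%.

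Both TANK promoters (250 bases before each start, GRCh38.p14, plus strand, from RefSeq) are shown because one start had a region and the other had none. Capitals mark motif matches.
TANK downstream start, chr2:161160178-161160427: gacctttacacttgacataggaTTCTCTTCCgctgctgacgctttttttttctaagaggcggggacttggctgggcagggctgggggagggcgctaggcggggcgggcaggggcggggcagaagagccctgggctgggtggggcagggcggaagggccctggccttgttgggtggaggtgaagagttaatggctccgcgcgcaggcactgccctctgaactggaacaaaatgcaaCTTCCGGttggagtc
TANK upstream start, chr2:161136713-161136962: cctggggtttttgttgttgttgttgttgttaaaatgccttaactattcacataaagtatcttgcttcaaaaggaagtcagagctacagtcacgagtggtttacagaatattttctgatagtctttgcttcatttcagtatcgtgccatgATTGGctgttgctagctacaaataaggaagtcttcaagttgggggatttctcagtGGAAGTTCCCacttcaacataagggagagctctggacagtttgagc

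In the promoter with the region, the first capital run matches the ETS-IRF composite motif on the reverse strand, 228 to 220 bases before the start, and the second matches the ETS motif CCGGAAG on the reverse strand, found in 10.7% of promoters. The composite match was 324 and 331 bp from the summits, against 12 and 34 bp at RIGI. In the promoter without a peak, the runs match the CCAAT box and the NF-kB consensus, both on the reverse strand. The base composition differed, with 62.4% G or C in the promoter with the region and 40.4% in the one without, where the median over 22180 promoters of protein-coding genes was 62%.

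TANK also had shared regions away from its starts. That at 161166724 to 161167384, 6.65 kb downstream of the second start, had fold enrichments of 4.32 and 4.91. Another lay 8.70 kb beyond the higher-coordinate end of the gene (161244392 to 161245340, 4.84 and 9.46), with its summit 191 bp from the start of LINC01806, a long non-coding RNA gene. Replicate 2 alone had 2 further peaks, with 3.28 and 3.78.

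DDX3X, an RNA helicase of general messenger RNA metabolism that also assists MAVS signalling, stood far above the other genes. Its region on the X chromosome (41332752 to 41335130) was 2379 bp long. Fold enrichment was 26.1 in replicate 1 and 37.8 in replicate 2, with pileups of 298 and 299. These values were at the 99.8 and 99.7 percentiles of the lists, and the region was at the 99.4 percentile of genes with a region at a listed start. The summits were 71 and 96 bp downstream of the nearest of 3 listed starts. A separate region 1.87 kb upstream of the first listed start (41331087 to 41331882) had 4.01 and 4.86. No motif of the search matched in the 250 bases before any of the DDX3X starts.

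**Figure D2:**
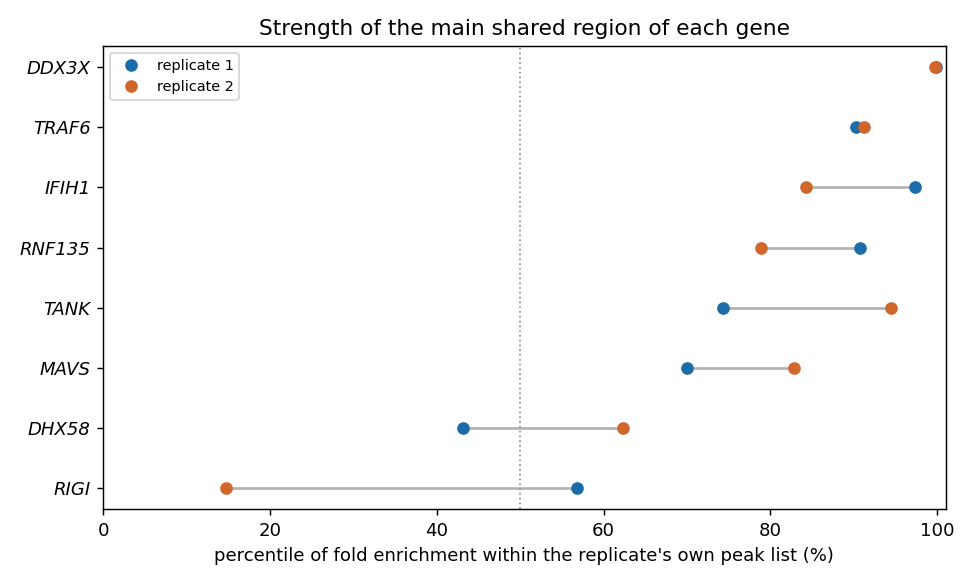
The x axis gives the percentile of fold enrichment within each replicate's own peak list, and each row is the main shared region of 1 gene, at its start where one is listed, at its end for DHX58 and inside the span for RNF135. Points are replicates (blue 1, orange 2), lines join them and the dotted line marks the middle of a list. DDX3X stands at the 99.8 and 99.7 percentiles and RIGI at 56.8 and 14.7.

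Ordered by the worse of their percentiles, the main regions ran from DDX3X through TRAF6, IFIH1, RNF135, TANK, MAVS and DHX58 to RIGI. Within both lists DDX3X stood above TRAF6, IFIH1 above RNF135, TANK above MAVS and MAVS above DHX58. The lists differed in the order of TRAF6 and IFIH1, of RNF135 and TANK, and of DHX58 and RIGI. The order within these last pairs is not settled by 2 replicates. The median fold enrichment over all 8624 genes with a region at a listed start was 5.59 in replicate 1 and 8.54 in replicate 2. DDX3X and TRAF6 were above both medians, RIGI and MAVS were below both, and IFIH1 and TANK were above in 1 replicate. The median place of the 6 genes among those 8624 was the 58.5 percentile, close to the middle. The 6 places ran over nearly the whole range, with RIGI and DDX3X at its ends.

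**Figure D3:**
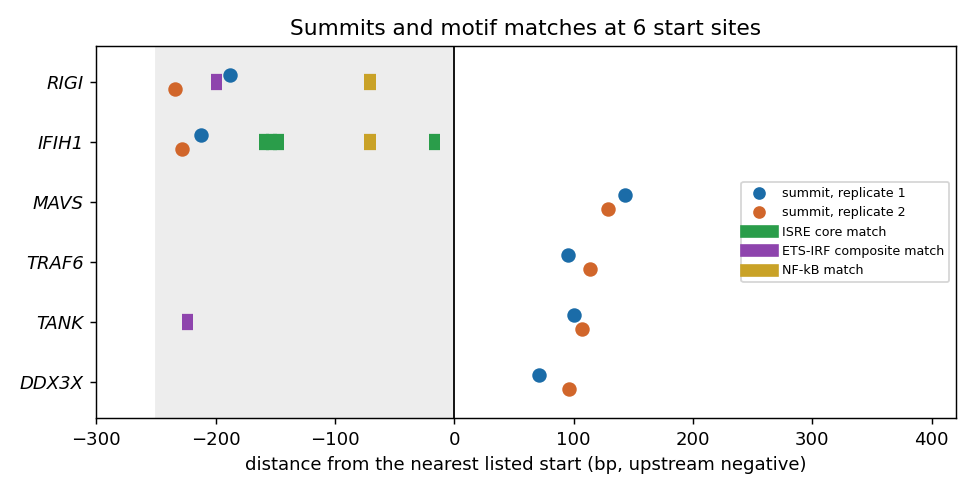
The x axis is the distance in bp from the nearest listed start, upstream being negative, and each row is 1 gene. Circles are summits (blue replicate 1, orange replicate 2), coloured blocks are motif matches in the 250 bases before the start (grey band). The summits of RIGI and IFIH1 lie 188 to 234 bp upstream, and those of the other 4 genes 71 to 143 bp downstream.

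Relative to the nearest listed start of the gene itself, both summits were upstream in RIGI and IFIH1. In MAVS, TRAF6, TANK and DDX3X both were downstream. At IFIH1 the summits and the distal ISRE run also lay inside the span of GCA, so the region is not that of IFIH1 alone. Over all 8624 genes with a region at a listed start, both summits lay downstream in 61.5% and upstream in 26.8%, and in 21.2% both were at least 150 bp upstream. Of the 6 genes searched, RIGI, IFIH1 and TANK had a match to the ISRE core or the ETS-IRF composite, each in 1 promoter. The 6 genes have 9 listed promoters, 2 of them of TANK and 3 of DDX3X. Over all 22180 promoters, counted singly and not by gene, 11.8% held such a match. Taken singly, the ISRE core was in 6.07% and the composite in 6.38% of promoters. The search covered both strands, and the motifs share letters so that a sequence can match more than 1. Over all genes, an ISRE core or composite match was present in 11.4% of promoters with both summits upstream and in 11.1% of those with both downstream. The pairing of an upstream summit with these letters, seen in RIGI and IFIH1, was thus not seen as a difference in share across the genome. This comparison was chosen after the summits were seen. A match is a description of letters and not of binding at that spot. AP-1 (TGANTCA), E-box (CACGTG), NRF1 (GCATGCGC) and cAMP response element (TGACGTCA) letters were in none of the promoters of the 6 genes searched. The promoters of DHX58 and RNF135 were not searched for any motif.

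Most other genes of the pathway had a shared region at an end as well. Of 51 genes chosen from textbook knowledge of RIG-I-like receptor signalling, 46 had a shared region within 1 kb of a gene end (90.2%), against the background of 50.03%. All protein-coding genes serve as background, silent genes included, and expression was not measured. The list was chosen with earlier results of these data known and its share is not independent evidence. The median place of its members among all genes with a region at an end was the 61.8 percentile. Occupied were 11 of 12 regulators of the sensors, 8 of 9 partners of the adaptor, 16 of 18 signalling genes, 6 of 6 transcription factor genes and 5 of 6 inhibitors. Regulators of the sensors had the highest median place, at the 86.1 percentile, and partners of the adaptor the lowest, at 45.5.

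The 6 best-placed of these genes were spread over 3 of the roles. PCBP2, an RNA-binding protein that promotes the breakdown of MAVS, showed a fold enrichment of 16.7 in replicate 1 and 22.2 in replicate 2. PRKRA, which encodes the double-stranded RNA binding partner PACT, had 11.5 and 18.5. TRIM25, a ubiquitin ligase linked to RIG-I activation, had 11.1 and 35.6, and ZNFX1, a mitochondrial double-stranded RNA sensor, had 13.3 and 16.2. JUN, a component of the interferon beta enhancer complex, had 9.70 and 37.6, and PPP1CC, a catalytic subunit of the phosphatase that removes inhibitory phosphate from RIG-I and MDA5, had 9.13 and 15.8. None of these 6 reached the values of DDX3X in both replicates.

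The 5 genes without a shared region at an end were STING1, TBKBP1, DDX60, IKBKG and TNFAIP3. Of these, 3 had a shared region at a listed start inside the span. DDX60, a helicase that promotes RIG-I signalling, had 10.1 in replicate 1 and 12.7 in replicate 2, 11 bp from a start. TNFAIP3, which encodes the inhibitor A20, had 10.1 and 13.3, 108 bp from a start. IKBKG, which encodes NEMO, had 10.1 and 10.1, 464 bp from a start, and this gene is known to have a near-identical partial copy nearby, whose part in the value was not tested. STING1, the adaptor of DNA sensing, and TBKBP1, an adaptor of TBK1, had no shared region within 10 kb of the gene.

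**Figure D4:**
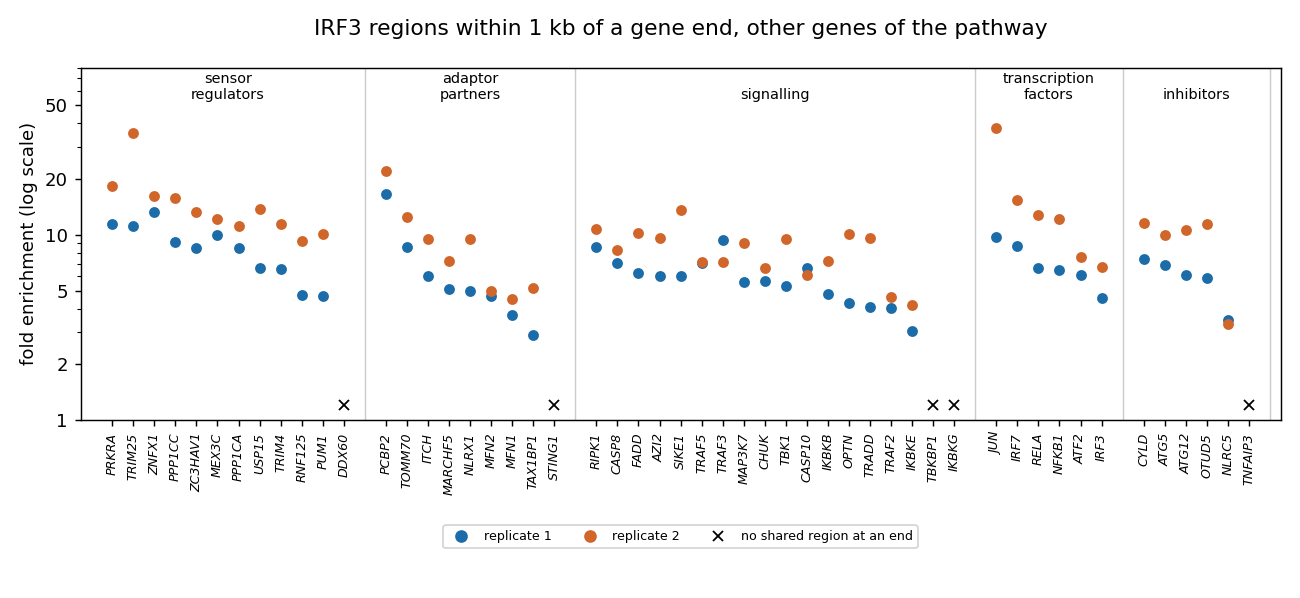
Fold enrichment on a log scale is plotted for each of the 51 other pathway genes, grouped by role and ordered within a role by the worse of the within-list percentiles. Blue points are replicate 1, orange points are replicate 2, and crosses mark the 5 genes with no shared region within 1 kb of an end. PCBP2 and JUN stand highest in their groups.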

How the data were processed

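Narrow peaks were called by the authors with MACS2 2.1.2, per the file headers, each ChIP library against the input of the same number, at a q-value cutoff of 0.05 with all duplicate tags kept. ChIP libraries held 38568845 and 46474586 tags and inputs 58025919 and 60348415. Per the submitters' processing notes, tools were MACS2 2.1.1, deepTools 3.3.1, SAMtools 1.2, Picard 2.6.0 and BWA 0.7.15, and the build GRCh38. The deposited values are the authors': pileup (a signal), fold enrichment (a ratio to local input), −log10 p and −log10 q. They were ranked within a list. The labels do not name separate cultures.

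Regions were built in Python 3.11.15 (pandas 2.3.3, numpy 2.4.6) and tested on simulated peaks. A region's summit is that of its strongest peak. RefSeq tables of GRCh38.p14 matched all 8 genes and the 51 list genes, with starts for 6 of the 8, so either end of the span was the main measure. Exons were not used here. Motifs were searched in the 250 bases before each start. With 1 condition, counts have no test. Named pathway genes are the 6 best-placed and the 5 without a region at an end, and neighbours were named after their values were seen. Genes and lists were chosen with earlier results of these data known. Alternatives covered thresholds, overlap, distances and single replicates.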

Additional observations from a re-analysis of the deposited data

How the results depend on the processing

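The count of 8 genes with a shared region in the window was 8 without replicate 1 and 8 without replicate 2, and that of 6 genes with one at an end was 6 in both cases. Leaving out a replicate gave 46 to 47 of the 51 pathway genes and 10295 to 11057 of all protein-coding genes. With a fold enrichment of at least 5 required in both replicates, 3 of the 8 genes (37.5%) kept a region at an end, DDX3X, TRAF6 and IFIH1, against 5729 of all genes (28.6%), and RIGI and MAVS had none in the window. The construction of that setting removes regions below the limit. In the other settings tried (−log10 q of at least 5, reciprocal overlap of 50%, limits of 500 bp and 5 kb, windows of 0, 5 and 50 kb, regions nearer to another gene left out) the counts stayed within 1.5 times, the lowest being 5 of 8 at an end. The count of 5 was found at the limit of 500 bp, against 45.0% of all genes. It was also found with regions nearer to another gene left out, against 43.8% of all genes. That last setting removed the end region of IFIH1, both shared regions of RNF135 and the shared regions of the DHX58 window inside KAT2A. The median place of the 8 main regions was taken in each list and averaged over the 2 lists. It was 82.9 by fold enrichment, 86.98 by −log10 q and 87.1 by pileup. Both shifts were larger than the spread between the medians of the 2 lists. No such value was computed over all genes. RIGI, at 56.8 in replicate 1 and 14.7 in replicate 2 by fold enrichment, stood at 54.4 and 37.4 by −log10 q and at 48.9 and 59.6 by pileup. DDX3X was the only single gene whose mean place moved by more than its own spread between replicates, which was small. It went from 99.8 to 99.4 by −log10 q and 98.7 by pileup. The mean place of RIGI moved further, from 35.8 to 45.9 and 54.2, but its replicates were wide apart. No paired analysis was possible because the input libraries have no values of their own in the peak lists. Precision is limited by 2 libraries and by pileups that in the shared regions were as low as 30 fragments, at the region inside TRAF6 in replicate 2. Fold enrichments of one gene in the 2 lists depend on the antibody recovery and input of each library.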
